A study of Rattus norvegicus with 22 samples.

Results

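The cell composition of kidneys from DOCA-treated rats was compared with that of control rats. Deoxycorticosterone acetate (DOCA) is a mineralocorticoid that, given with salt after removal of 1 kidney, is used to model hypertensive kidney damage. Members were all nuclei from the libraries annotated as DOCA or control in the deposited single-nucleus RNA-Seq (snRNA-Seq) annotation, 94121 of the 310282 nuclei in the series. They came from 10 of 22 libraries, with 46857 nuclei in 5 control libraries and 47264 in 5 DOCA libraries. Every nucleus carries 1 of 16 cell type names given by the authors, and the share of each type was measured in each library, among all nuclei and among the 13 types outside the proximal tubule.

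All rats were male Sprague-Dawley rats, and whole frozen kidney tissue was used. Control rats were sham-operated and kept both kidneys, were injected with sesame oil without DOCA and drank tap water. DOCA rats had left nephrectomy, weekly subcutaneous DOCA at 50 mg/kg in sesame oil, salt in the drinking water and a daily gavage of vehicle. Nephrectomy, DOCA and salt therefore cannot be told apart in this comparison. The labels give 5 control samples, all taken at week 6, and 5 DOCA samples, of which 4 were taken at week 6 and 1 at week 3. The names of the libraries do not say which sample each one came from, and which DOCA library is from week 3 is not stated. A possible match by counts is given below. The annotation gives the treatment of each library, and the number of libraries equals the number of labelled samples in each group. Libraries are treated as replicates on that basis, although not every library may come from a separate rat. A permutation p is the share of assignments of libraries to groups that give a difference at least as large.

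The kidney filters blood in the glomerulus, where podocytes wrap the capillaries, and the filtrate then passes through the proximal tubule, the loop of Henle (LOH), the distal convoluted tubule (DCT) and the collecting duct. Principal cells (PC) of the collecting duct take up sodium under the control of aldosterone and the mineralocorticoid receptor, and intercalated cells of types A and B (IC_A and IC_B) secrete acid and base. Between the tubules lie endothelial cells, fibroblasts and resident immune cells. In hypertensive kidney disease, tubule injury is typically accompanied by an influx of macrophages, monocytes and lymphocytes and by scarring, in which fibroblasts and contractile myofibroblasts (MyoFib) lay down matrix. Other types in the annotation were the proximal convoluted and straight tubule (PCT and PST), the injured proximal tubule (iPT) and proliferating tubule cells (Prolif_Tubule). No gene values were analysed here, so the names could not be checked against their markers.

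The libraries differed in size and in how they were named. Control libraries held 18931 (RK10.3.Old), 6629 (RK11.3), 1238 (RK12.2), 14747 (RK12.2.Old.MO) and 5312 (RK12.3) nuclei. DOCA libraries held 13307 (RK2.2.New), 1774 (RK7.1), 8716 (RK7.2), 8300 (RK8.2) and 15167 (RK9.1.Old.MO) nuclei. Values below follow this order within each group. In each group 2 libraries have names that hold the word Old or New (called tagged here) and 3 do not, and nuclei of tagged and untagged libraries also end in different suffixes, without exception. The study made some libraries with the Multiome kit, which reads RNA and open chromatin from the same nucleus, and the name of 1 library in each group ends in MO, which may stand for that kit. Untagged libraries match in number, treatment by treatment, the samples listed first. MO libraries match those listed last, and the other tagged libraries those between. On that match RK2.2.New, the only tagged DOCA library without MO, would be the week-3 DOCA sample. The match rests on counts and on the order of the samples, and was not tested. RK2.2.New is also the only control or DOCA library tagged New, so the New tag and week 3 could not be told apart. The 2 MO libraries shared 298 cell barcodes, 2.02% of the smaller. The 16 pairs of an MO library with another library shared 0, and pairs without an MO library shared at most 0.846%. The reason for this pattern was not tested. Of the 9 numbers in these names, 4 (RK2.2, RK7.1, RK8.2 and RK12.2) also occur under a drug treatment, but none does so once names with New are set aside, so whether a number stands for 1 rat is not known. The control libraries RK12.2 and RK12.2.Old.MO share a number and may come from 1 rat. With their nuclei summed, 4 control libraries stood against 5 DOCA libraries. Then 5 types had an unadjusted p under 0.05 and the lowest adjusted p, that of lymphocytes and Prolif_Tubule among others, was 0.127 (exact permutation test). These 5 differ from the 5 of the unsummed libraries, with podocytes (−0.482 percentage points, exact permutation p = 0.0317) in place of iPT (3.44 percentage points, exact permutation p = 0.0556).

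Kidneys of DOCA-treated rats differed from control kidneys in composition as a whole. The difference between the groups made up 39.8% of the sum of squares of the centred log ratios of the 16 types, and no other assignment of the libraries gave more (exact permutation test, p = 0.0079, the smallest that 5 against 5 libraries allow). Between the mean compositions, 15.3% of nuclei would have to be renamed to turn one into the other. Prolif_Tubule contributed 33.6% of the squared distance between the groups, Lymphocyte 17.8%, macrophages (Mac) 10.4%, LOH 9.61% and podocytes (Podo) 6.72%. The first of these leans on RK12.2, which held no Prolif_Tubule nucleus and entered with 0.5 added. Without RK12.2, a comparison added after seeing the data, Prolif_Tubule contributed 20.4%, Lymphocyte 18.4%, Podo 14.8%, Mac 13.8% and LOH 10.2%. Log ratios weight rare types as much as common ones. On the shares themselves, where PCT and LOH dominate, the groups made up 23.2% of the sum of squares (exact permutation test, p = 0.111). Without the proximal tubule types, the difference was 41.2% of the sum of squares (exact permutation test, p = 0.0079).

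**Figure D1:**
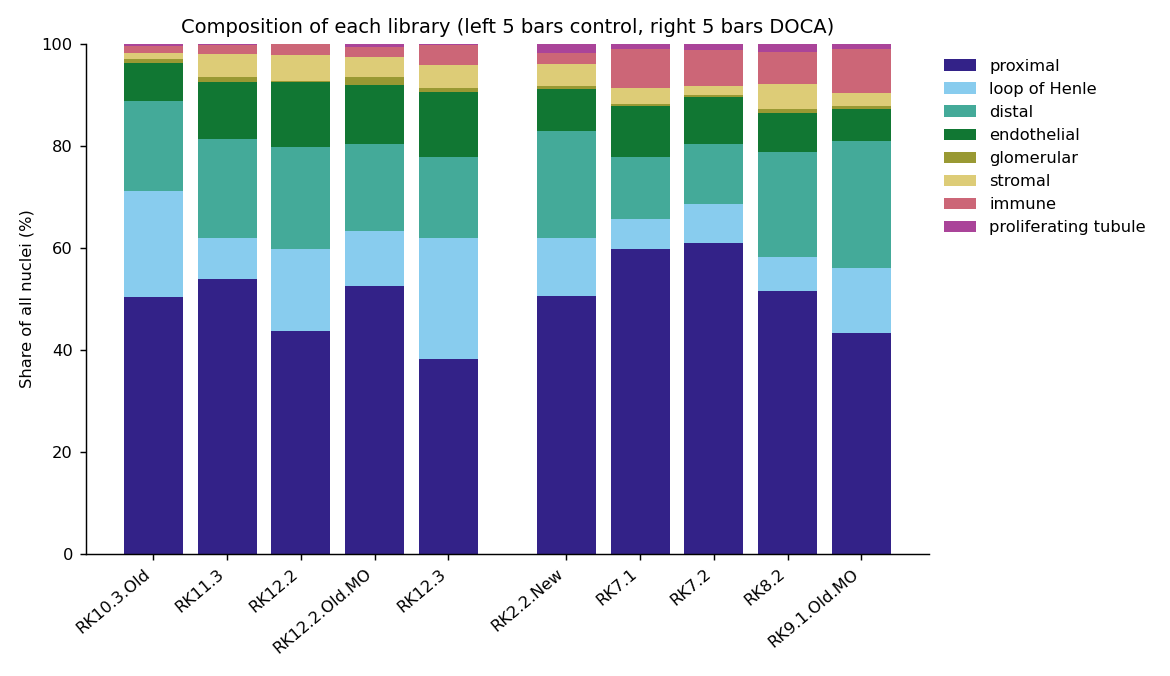
Share of all nuclei (%) in each of 8 compartments, 1 bar per library, with the 5 control libraries on the left and the 5 DOCA libraries on the right. The immune part takes 1.34 to 3.82% of control libraries and 2.28 to 8.65% of DOCA libraries, and the loop of Henle part is at most 12.9% in DOCA libraries and up to 23.8% in control libraries.

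Taken type by type, the shares that stood highest in DOCA relative to control were those of Prolif_Tubule, Lymphocyte, Mac, monocytes (Mono) and iPT, and the share that stood lowest was that of LOH. None of the 16 types (0%) passed an adjusted p of 0.05 in the exact permutation test over libraries, with Benjamini-Hochberg adjustment. Of the 16 types, 5 (31.2%) had an unadjusted p under 0.05, and in 2 (12.5%), Prolif_Tubule and Lymphocyte, control and DOCA libraries did not overlap. These 2 types had the smallest p the design allows, 0.0079, which gave an adjusted p of 0.0635. On log2 odds fitted over all types with limma, 3 of 16 types (18.8%) passed, namely Prolif_Tubule, Lymphocyte and Mac, and the same number passed with the name tag as a covariate (18.8%). That covariate joins Old and New, and New occurs here only in RK2.2.New, so it does not adjust for New against Old. RK2.2.New decided the first count. Without this DOCA library, Prolif_Tubule, Lymphocyte, Mac, Mono and iPT passed the exact permutation test, each with an adjusted p of 0.0254. A share is relative, so that a higher share of 1 type and fewer nuclei of others cannot be told apart, nor can recovery of nuclei and number of cells.

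The spread between libraries was far larger than counting error. Within groups, the variance of a share between libraries was 7.42 times that expected from counting for Prolif_Tubule and 209 times for PCT, with the other types between these values. For this reason each library is given equal weight below, and values pooled over nuclei are given where the direction turned and for immune nuclei. With no turn, pooling moved the difference in IC_A from −0.763 to −0.217 percentage points and in MyoFib from 0.158 to 0.311. Among non-proximal nuclei it moved IC_A from −0.724 to −0.341 and IC_B from 0.321 to 0.139. There MyoFib went from 0.392 to 0.645 and Podo from −0.631 to −0.974.

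The mean share of immune nuclei was higher in DOCA libraries, a difference that did not pass the adjusted test. Macrophages, monocytes and lymphocytes together made up 1.34, 1.66, 2.10, 2.09 and 3.82% of control libraries and 2.28, 7.67, 7.07, 6.25 and 8.65% of DOCA libraries. In 4 of 5 DOCA libraries the share lay above every control library. RK2.2.New, which may be the week-3 sample, lay within the control range. The mean was 2.20% ± 0.96 (SD, n = 5) in control and 6.38% ± 2.45 (SD, n = 5) in DOCA, a 2.90-fold difference (exact permutation test, p = 0.0159, adjusted over 8 compartments 0.0635). Among libraries with a name tag the means were 1.72 and 5.47%, and among those without they were 2.53 and 7.00%. Pooled over nuclei the shares were 1.92 and 6.11%.

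Lymphocytes, the T, B and natural killer cells, showed the largest fold difference of the 3 immune types. They made up 0.338, 0.287, 0.242, 0.631 and 0.621% of control libraries and 0.639, 1.30, 2.24, 1.67 and 2.11% of DOCA libraries. All DOCA libraries were above all control libraries, but RK2.2.New at 0.639% was barely above RK12.2.Old.MO at 0.631%. The value of RK12.2 rests on 3 nuclei, with an exact 95% confidence interval of 0.05 to 0.707%. Means were 0.424% ± 0.188 in control and 1.59% ± 0.65 in DOCA (SD, n = 5 each), 3.76-fold apart (exact permutation test, p = 0.0079, adjusted 0.0635), and the odds ratio from limma was 3.64 (95% confidence interval 2.02 to 6.54, adjusted p = 0.00438). The odds ratio kept an adjusted p under 0.05 with limma without each library in turn.

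Macrophages, which clear debris and are the most common immune cells of the kidney, were the largest immune type in every library. Their shares were 0.740, 1.10, 1.37, 1.05 and 2.77% in control and 1.16, 5.75, 4.05, 4.08 and 5.26% in DOCA. The control library RK12.3 was the highest of its group, and RK2.2.New was again within the control range. The means of 1.41% ± 0.79 and 4.06% ± 1.78 (SD, n = 5 each) were 2.89-fold apart (exact permutation test, p = 0.0238, adjusted 0.0762). With limma the odds ratio was 2.88 (95% confidence interval 1.45 to 5.71, adjusted p = 0.0257), and this call was lost without any 1 of RK10.3.Old, RK12.2.Old.MO, RK7.1, RK7.2, RK8.2 or RK9.1.Old.MO, or without both MO libraries.

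Monocytes, the circulating precursors of macrophages, were rarer and had narrower ranges. They took 0.264, 0.272, 0.485, 0.407 and 0.433% of control libraries and 0.481, 0.620, 0.780, 0.494 and 1.28% of DOCA libraries. The lowest DOCA library, RK2.2.New, was just below the highest control library. Means were 0.372% ± 0.099 and 0.731% ± 0.329 (SD, n = 5 each; exact permutation test, p = 0.0159, adjusted 0.0762; limma odds ratio 1.87, 95% confidence interval 1.12 to 3.11, adjusted p = 0.0787). Without RK9.1.Old.MO the difference of 0.359 percentage points was 0.222, and monocytes passed an adjusted p of 0.05 with limma without RK12.2 or without RK2.2.New. The balance among immune types varied widely. Macrophages numbered 2.57 to 6.28 times the monocytes in control libraries and 2.41 to 8.91 times in DOCA libraries, and the log2 ratios differed by 0.59 (exact permutation test, p = 0.198, adjusted over 12 ratios 0.397). The log2 ratio of lymphocytes to macrophages differed by 0.36 (exact permutation test, p = 0.389, adjusted 0.643), and ran from 0.19 to 0.59 without 1 library.

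**Figure D2:**
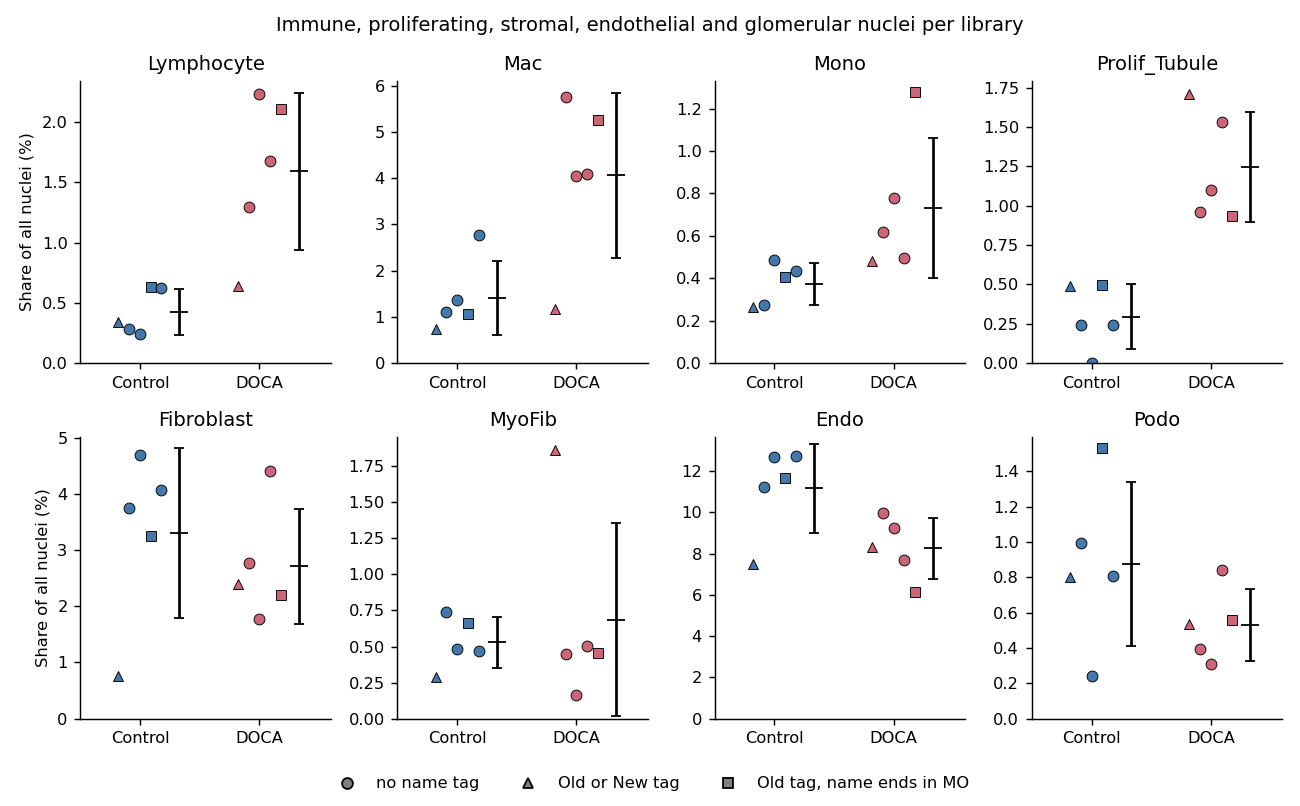
Share of all nuclei (%) in each library for 8 cell types, with control in blue and DOCA in red, and the mean and SD of 5 libraries beside each group. Circles are libraries with no name tag, triangles those with an Old or New tag and squares the MO libraries, which also carry an Old tag. Lymphocyte and Prolif_Tubule show no overlap between groups, and RK2.2.New (red triangle) is the lowest DOCA library for Lymphocyte, Mac and Mono and the highest for Prolif_Tubule and MyoFib.

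Proliferating tubule cells, tubule cells in division, were rare in both groups and had a higher mean share in DOCA libraries. They made up 0.491, 0.241, 0, 0.495 and 0.245% of control libraries and 1.71, 0.958, 1.10, 1.53 and 0.936% of DOCA libraries. No DOCA library overlapped a control library. None of 1238 nuclei of RK12.2 carried this name, which allows a share of up to 0.242% (3 nuclei). Means were 0.294% ± 0.207 and 1.25% ± 0.35 (SD, n = 5 each), 4.23-fold apart (exact permutation test, p = 0.0079, adjusted 0.0635), and limma gave the largest odds ratio of the 16 types, 5.38 (95% confidence interval 2.36 to 12.3, adjusted p = 0.00438). That size depends on RK12.2, and without it the odds ratio from limma was 3.48 (95% confidence interval 2.08 to 5.82, adjusted p = 0.00197), next to 3.31 for lymphocytes. RK2.2.New, the DOCA library lowest in immune nuclei, was the highest in this type. The direction held with and without a name tag, with means of 0.493 and 1.32% in tagged libraries and 0.162 and 1.20% in untagged ones.

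Most of these nuclei lay together on the deposited UMAP, a map that places nuclei with similar expression near each other. Of the Prolif_Tubule nuclei, 178 of 195 in control and 551 of 609 in DOCA fell in 1 island, a region chosen after the map was seen. Counting only the island, the shares were 0 to 0.475% in control and 0.733 to 1.70% in DOCA. Judged by the 15 nearest nuclei of other types, the 58 DOCA nuclei outside it lay in scattered places, 22 of them among principal cells, 12 among PCT, 10 among endothelial cells and 7 among LOH. Of the 17 such control nuclei, 10 lay among endothelial cells, 3 among LOH and 2 among principal cells.

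Stromal types overlapped widely between the groups. Fibroblasts, the matrix-forming cells of the interstitium, made up 0.766, 3.76, 4.68, 3.25 and 4.07% of control libraries and 2.40, 2.76, 1.77, 4.41 and 2.21% of DOCA libraries. RK10.3.Old, the largest control library, had the lowest share of all 10. The means were 3.31% ± 1.51 and 2.71% ± 1.02 (SD, n = 5 each; exact permutation test, p = 0.476, adjusted 0.544), and the odds ratio from limma ran from 0.458 to 1.80 in its 95% confidence interval, so that neither a lower nor a higher share was shown. Without RK12.2 the difference of −0.597 percentage points was −0.252, and without RK10.3.Old it was −1.23. Pooled over nuclei the order turned, with 2.45% in control and 2.59% in DOCA. Myofibroblasts took 0.285, 0.739, 0.485, 0.665 and 0.471% of control libraries and 1.86, 0.451, 0.161, 0.506 and 0.455% of DOCA libraries. RK2.2.New alone put the DOCA mean of 0.687% ± 0.672 above the control mean of 0.529% ± 0.178 (SD, n = 5 each; exact permutation test, p = 0.873, adjusted 0.931), and without it the difference was −0.136 percentage points. The 95% confidence interval of the odds ratio from limma was 0.470 to 2.10.

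Immune nuclei stood high against stromal nuclei in most DOCA libraries. The ratio of immune to stromal nuclei was 1.28, 0.370, 0.411, 0.533 and 0.843 in control libraries and 0.537, 2.37, 3.66, 1.27 and 3.24 in DOCA libraries. The control library RK10.3.Old, low in fibroblasts, was above the DOCA libraries RK2.2.New, low in immune nuclei, and RK8.2, and the other 3 DOCA libraries were above every control library. The log2 ratio differed by 1.56, or 2.94-fold (exact permutation test, p = 0.0397, adjusted 0.159). Of the 12 ratios tested, none (0%) passed the adjusted threshold, 3 (25%) had an unadjusted p under 0.05, and in 1 (8.33%) the groups did not overlap.

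Endothelial cells, which line the vessels and the glomerular capillaries, took a lower mean share in DOCA. They made up 7.49, 11.2, 12.7, 11.7 and 12.7% of control libraries and 8.33, 9.98, 9.24, 7.69 and 6.13% of DOCA libraries. In 4 of 5 control libraries the share was above every DOCA library, and the exception was RK10.3.Old. The means were 11.2% ± 2.2 and 8.27% ± 1.48 (SD, n = 5 each; exact permutation test, p = 0.0556, adjusted 0.145; limma odds ratio 0.721, 95% confidence interval 0.466 to 1.12). Among non-proximal nuclei the difference was smaller, 21.4% ± 3.9 against 18.4% ± 5.8 (SD, n = 5 each; exact permutation test, p = 0.381, adjusted 0.550). Without RK9.1.Old.MO this difference went from −3.02 to −1.12 percentage points, and without RK7.1 to −4.62.

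Podocytes, the glomerular filter cells, were under 2% of nuclei in each of the 10 libraries. Their shares were 0.803, 0.996, 0.242, 1.53 and 0.809% in control and 0.534, 0.395, 0.310, 0.843 and 0.560% in DOCA. Control libraries were both the highest and the lowest, and the lowest, RK12.2, rests on 3 nuclei (exact 95% confidence interval 0.05 to 0.707%). The means of 0.877% ± 0.463 and 0.528% ± 0.204 (SD, n = 5 each) were 1.66-fold apart (exact permutation test, p = 0.175, adjusted 0.279). The difference of −0.348 percentage points rested on few libraries. Without RK12.2 it was −0.507 and podocytes passed an adjusted p of 0.05 with limma, whereas without RK12.2.Old.MO it was −0.184. Among non-proximal nuclei the difference of −0.631 was −0.262 without RK12.2.Old.MO and −0.96 without RK12.2. The number of podocytes per endothelial cell was 0.0222 to 0.132 in control and 0.0341 to 0.110 in DOCA, so that the DOCA range lay within the control range (exact permutation test on log2 ratios, p = 0.778, adjusted 0.848).

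Along the nephron beyond the proximal tubule, the mean LOH share was lower in DOCA and the distal types overlapped between groups. LOH cells, which concentrate urine and reabsorb salt, made up 20.7, 7.995, 16.2, 10.9 and 23.8% of control libraries and 11.2, 5.92, 7.64, 6.76 and 12.9% of DOCA libraries. The control libraries RK11.3 and RK12.2.Old.MO fell within the DOCA range. The means were 15.9% ± 6.6 and 8.87% ± 3.00 (SD, n = 5 each), 1.79-fold apart (exact permutation test, p = 0.0635, adjusted 0.145; limma odds ratio 0.530, 95% confidence interval 0.297 to 0.948, adjusted p = 0.0917). Without RK11.3, LOH passed with limma.

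The DCT, the site of thiazide-sensitive salt uptake, made up 5.26, 6.91, 5.57, 5.17 and 2.00% of control libraries and 8.56, 4.57, 4.46, 6.96 and 10.0% of DOCA libraries. The 3 highest values were all DOCA, but RK7.1 and RK7.2 lay among the controls. The means were 4.98% ± 1.81 and 6.91% ± 2.44 (SD, n = 5 each; exact permutation test, p = 0.214, adjusted 0.312). Without RK9.1.Old.MO the difference of 1.93 percentage points was 1.16, and without RK12.3 it was 1.19. It was larger among tagged libraries, 5.21 against 9.29%, than among untagged ones, 4.83 against 5.33%.

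Principal cells, where aldosterone acts through the epithelial sodium channel, made up 7.08, 6.67, 7.59, 5.99 and 8.38% of control libraries and 6.73, 4.06, 3.03, 6.64 and 9.57% of DOCA libraries. DOCA libraries were both the highest and the lowest, and spread more widely than control libraries. Means were 7.14% ± 0.91 and 6.01% ± 2.56 (SD, n = 5 each; exact permutation test, p = 0.373, adjusted 0.459). The difference of −1.14 percentage points was −0.392 without RK7.2 and −2.03 without RK9.1.Old.MO. The DOCA mean was above control among tagged libraries, 8.15 against 6.53%, and below it among untagged ones, 4.58 against 7.55%, so that the direction did not hold within both sets. Type A intercalated cells, the acid-secreting cells, took 3.43, 3.77, 4.85, 2.64 and 4.25% of control libraries and 2.93, 2.42, 2.78, 3.65 and 3.36% of DOCA libraries (exact permutation test, p = 0.127, adjusted 0.226). Type B cells took 1.98, 2.17, 1.94, 3.16 and 1.20% of control libraries and 2.83, 1.015, 1.47, 3.30 and 1.98% of DOCA libraries (exact permutation test, p = 0.960, adjusted 0.960). For type A, 3 of 5 control libraries were above every DOCA library, and for type B the groups overlapped widely. Without RK12.2 the difference in type A, −0.763 percentage points, was −0.498. The 95% confidence intervals of the odds ratios from limma were 0.523 to 1.23 for type A and 0.558 to 1.70 for type B.

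Set against each other, DCT and principal cells separated the groups, which neither did alone. In the paper, subclustering of these cells gave a connecting tubule group, so the deposited names DCT and PC may also hold such cells. The number of DCT nuclei per principal cell was 0.743, 1.04, 0.735, 0.863 and 0.239 in control libraries and 1.27, 1.12, 1.47, 1.05 and 1.05 in DOCA libraries. All DOCA libraries were above all control libraries, although RK11.3 at 1.04 nearly met RK9.1.Old.MO at 1.05. The log2 ratio was −0.62 ± 0.83 in control and 0.24 ± 0.21 in DOCA (SD, n = 5 each), a difference of 0.86 or 1.82-fold (exact permutation test, p = 0.0079, adjusted over 12 ratios 0.0952). Without RK12.3, the lowest control library, the difference was 0.50, and without RK12.2.Old.MO the adjusted p was 0.0476. The ratio of principal to intercalated cells did not separate the groups, with a log2 difference of −0.13 (exact permutation test, p = 0.619, adjusted 0.743), nor did that of type A to type B cells, with −0.27 (exact permutation test, p = 0.524, adjusted 0.698). The latter was −0.0394 without RK12.3 and −0.56 without RK12.2.Old.MO.

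**Figure D3:**
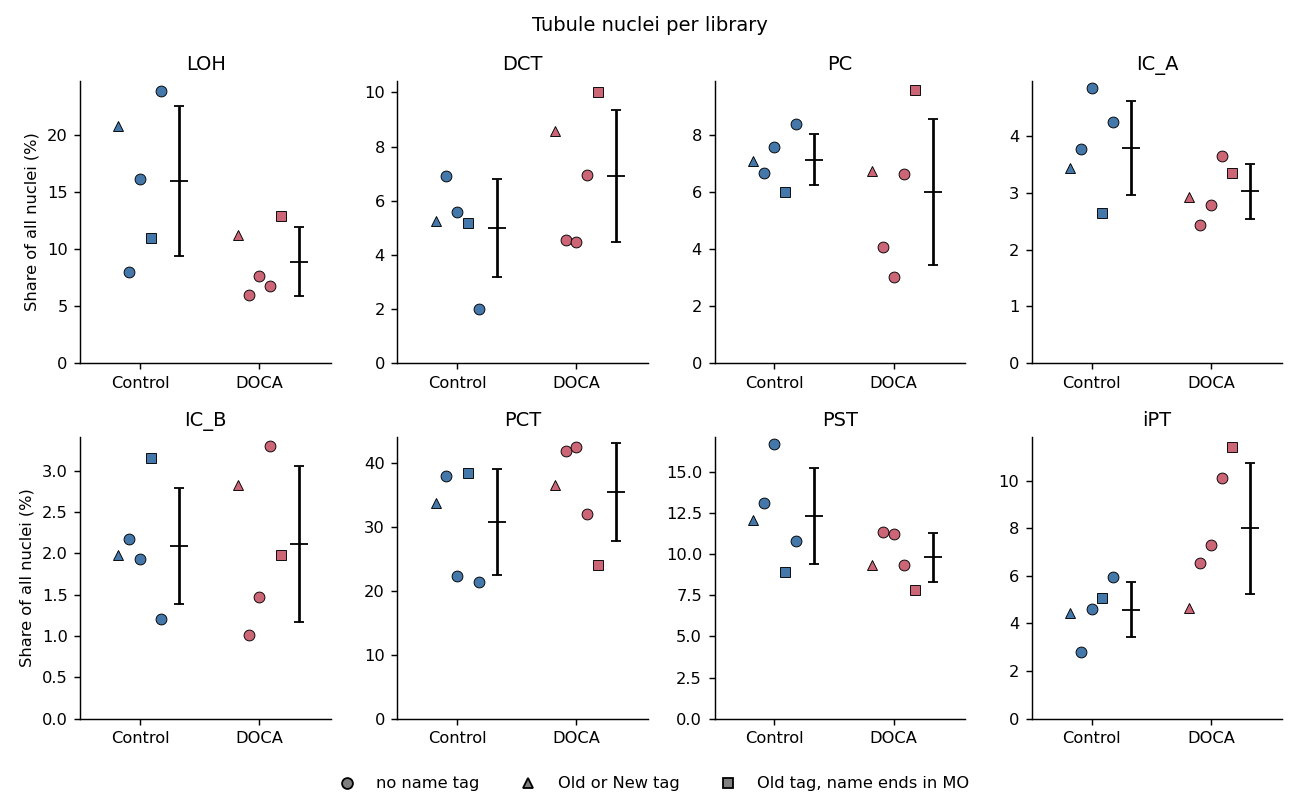
Share of all nuclei (%) in each library for 8 tubule types, with control in blue, DOCA in red, symbols by name tag and MO ending, and the mean and SD of 5 libraries beside each group. LOH reaches 23.8% in control and 12.9% in DOCA, and PC spans 5.99 to 8.38% in control and 3.03 to 9.57% in DOCA.

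Proximal tubule types together made up 38.2 to 53.9% of control libraries and 43.3 to 61.0% of DOCA libraries. Convoluted tubule cells had the largest mean share in each group, with 33.8, 37.9, 22.4, 38.4 and 21.4% in control and 36.6, 41.9, 42.5, 32.0 and 24.0% in DOCA (exact permutation test, p = 0.365, adjusted 0.459). Their mean was higher in DOCA with equal weight per library, whereas the pooled share was lower, 33.1 against 34.1%. The difference of 4.62 percentage points was 2.28 without RK12.3 and 7.46 without RK9.1.Old.MO. Straight tubule cells averaged 12.3% ± 2.9 and 9.82% ± 1.48 (SD, n = 5 each; exact permutation test, p = 0.127, adjusted 0.226). Without RK12.2 this difference went from −2.52 to −1.43 percentage points, and without RK12.2.Old.MO to −3.38. The injured proximal tubule averaged 4.57% ± 1.16 and 7.998% ± 2.740 (SD, n = 5 each; exact permutation test, p = 0.0238, adjusted 0.0762), with 4 of 5 DOCA libraries above every control library and RK2.2.New at 4.64% within their range.

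Leaving out the proximal tubule left 697 to 9401 nuclei per library and gave much the same order of types. None of 13 types (0%) passed the adjusted threshold in the exact permutation test, 4 (30.8%) had an unadjusted p under 0.05 and in 2 (15.4%) the groups did not overlap. With limma 4 of 13 (30.8%) passed, Prolif_Tubule, Lymphocyte, Mac and Mono, and with the name tag as a covariate the number was again 4 (30.8%). Without RK2.2.New these 4 types also passed the exact permutation test, each with an adjusted p of 0.0258. Without the MO libraries, limma lost Mac and Mono, and without RK10.3.Old or RK9.1.Old.MO it lost Mono.

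On this scale monocytes joined the types with no overlap. They were 0.532, 0.588, 0.861, 0.855 and 0.701% of non-proximal nuclei in control and 0.974, 1.54, 2.00, 1.02 and 2.25% in DOCA (exact permutation test, p = 0.0079, adjusted over 13 types 0.0516; limma odds ratio 2.11, 95% confidence interval 1.29 to 3.44, adjusted p = 0.0191). Proliferating tubule cells kept their separation, with 0.989, 0.523, 0, 1.04 and 0.396% in control and 3.46, 2.38, 2.82, 3.15 and 1.65% in DOCA (exact permutation test, p = 0.0079, adjusted 0.0516). Lymphocytes averaged 0.813% ± 0.354 and 3.48% ± 1.58 (SD, n = 5 each; exact permutation test, p = 0.0159, adjusted 0.0688), and RK2.2.New at 1.29% now fell below RK12.2.Old.MO at 1.33%. Macrophages reached 8.41 to 14.3% in 4 DOCA libraries and 2.36% in RK2.2.New, against 1.49 to 4.48% in control (exact permutation test, p = 0.0317, adjusted 0.103).

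No distal, stromal, endothelial or glomerular type passed on this scale. The DCT averaged 9.91% ± 4.23 in control and 14.4% ± 3.1 in DOCA (SD, n = 5 each; exact permutation test, p = 0.0714, adjusted 0.155). Without RK12.3 the DCT difference went from 4.52 to 2.85 percentage points. LOH averaged 29.9% ± 10.3 and 18.7% ± 4.2 (SD, n = 5 each; exact permutation test, p = 0.0556, adjusted 0.144). Podocytes averaged 1.75 and 1.12% (exact permutation test, adjusted p = 0.451). Fibroblasts averaged 6.29 and 5.85%, myofibroblasts 1.04 and 1.43%, and type B intercalated cells 4.14 and 4.47% (exact permutation test, adjusted p = 0.786 for each). Principal cells averaged 13.7 and 12.4% (exact permutation test, adjusted p = 0.640) and type A intercalated cells 7.23 and 6.50% (exact permutation test, adjusted p = 0.451). The difference in principal cells, −1.26 percentage points, was −0.0978 without RK7.2 and −2.38 without RK9.1.Old.MO. That in type A cells, −0.724, was −0.379 without RK12.2 and −1.14 without RK12.2.Old.MO.

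**Figure D4:**
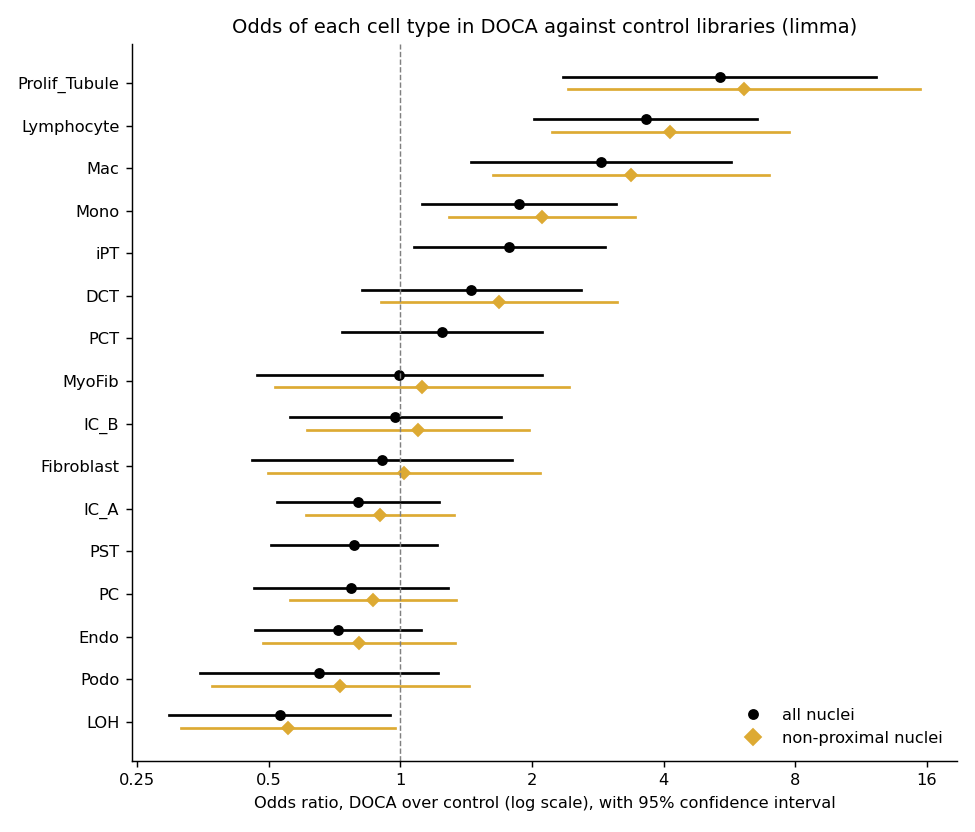
Odds ratio of each cell type, DOCA over control, with 95% confidence interval from limma on a log scale, among all nuclei (black circles, 16 types) and among non-proximal nuclei (yellow diamonds, 13 types). Prolif_Tubule is farthest above 1 with 5.38 among all nuclei and LOH farthest below with 0.530. Among all nuclei the intervals of Prolif_Tubule, Lymphocyte, Mac, Mono and iPT lie above 1 and that of LOH below 1. Those of all other types lie on both sides of 1, and the intervals are not adjusted for the number of types.

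Whether nuclei of 1 type lay apart on the UMAP by treatment was measured as the share of same-treatment nuclei among the 30 nearest nuclei from other libraries, with the same number drawn from each library. None of 16 types (0%) passed the adjusted threshold, and 3 (18.8%), LOH, iPT and DCT, had an unadjusted p under 0.05 (exact permutation test, one-sided). In LOH 51.2% of neighbours came from the same treatment, where the numbers of libraries give 44.4% (exact permutation test, p = 0.0079, adjusted 0.127). In iPT the share was 50.9% (exact permutation test, p = 0.0159, adjusted 0.127) and in DCT 46.5% (exact permutation test, p = 0.0238, adjusted 0.127). The excess over 44.4% in iPT, 6.49 percentage points, was 3.37 without RK11.3 (exact permutation test, p = 0.135) and 11.2 without RK2.2.New. In DCT the excess of 2.09 was 1.24 without RK12.3 (exact permutation test, p = 0.0714) and 4.14 without RK12.2. Without RK2.2.New, 5 types passed. Immune types were sparse, with 3 control libraries of at least 20 nuclei for lymphocytes and monocytes. Prolif_Tubule entered with 2 control and 4 DOCA libraries, and its 15 assignments allow no p under 0.05, so nothing can be read from its result. With 16 types, at least 3 would have had to reach the smallest p for any to pass the adjusted threshold.

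The LOH nuclei of DOCA kidneys extended farther along 1 side of their island. A limit on the first UMAP axis was chosen after seeing the map, so the values are a description. Nuclei at or below 5 on the second axis were left out, which kept 7473 of 7532 LOH nuclei in control and 4717 of 4772 in DOCA. At a limit of 4.5, the nuclei beyond it were 3.80, 4.58, 2.5, 5.16 and 3.85% of the kept LOH nuclei in control libraries and 9.16, 15.2, 7.46, 15.3 and 14.98% in DOCA libraries. RK2.2.New was above all control libraries here. At a limit of 4 the ranges were 1 to 2.67% and 4.41 to 9.57%, and at a limit of 5 they overlapped, with RK12.2.Old.MO at 13.6% and RK2.2.New at 9.70%. Libraries of rats given a drug, all of which also had DOCA at 50 mg/kg, are set beside these with no test. The drugs were finerenone at 10 mg/kg, spironolactone at 50 mg/kg and amiloride at 20 mg/kg per day, and 1 of 5 finerenone and 1 of 5 spironolactone samples were taken at week 3. These libraries ranged from 2.60 to 23.1% with finerenone, from 1.73 to 17.03% with spironolactone and from 7.15 to 13.9% with amiloride at a limit of 4.5. The iPT nuclei formed a pair of lobes. Among those below −2 on the second axis, 2140 of 2147 in control and 3888 of 3940 in DOCA, the left lobe held 26.3 to 63.8% of them in control libraries and 58.4 to 86.3% in DOCA libraries.

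**Figure D5:**
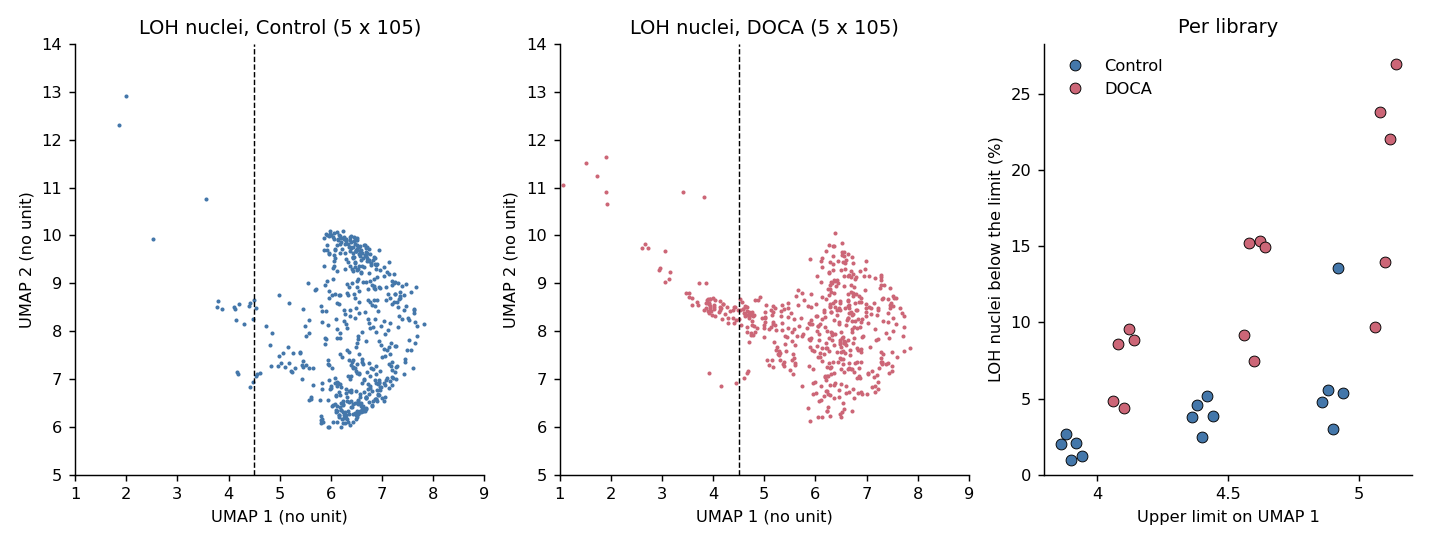
Position of LOH nuclei on the deposited UMAP (axes without unit) in control (left) and DOCA (middle), with 105 nuclei drawn from each library and a dashed line at 4.5 on the first axis, and the share of LOH nuclei above 5 on the second axis (%) to the left of 3 limits in each library (right). Nuclei below 1 on the first axis are not drawn. DOCA nuclei form an arm to the left of the line, and at limits of 4 and 4.5 no DOCA library overlaps a control library.

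The libraries of rats given DOCA with a drug are given for scale, with no test. The Prolif_Tubule share was 0 to 0.495% in control and 0.936 to 1.71% in DOCA, and it was 0.281 to 0.976% with finerenone, 0.632 to 1.06% with spironolactone and 1.22 to 1.37% in the 2 amiloride libraries. The Lymphocyte share, 0.639 to 2.24% in DOCA, was 0.157 to 2.98% with finerenone, 0.493 to 3.37% with spironolactone and 0.285 to 0.781% with amiloride. The LOH share, 5.92 to 12.9% in DOCA, was 3.26 to 14.6% with finerenone, 6.59 to 32.7% with spironolactone and 4.79 to 7.90% with amiloride. The Lymphocyte range with finerenone and with spironolactone was each wider than that over control and DOCA libraries together.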

How the data were processed

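Nuclei of the 10 DOCA and control libraries were taken from the annotation the authors deposited, which gives each nucleus a library, a treatment and a cell type. The UMAP coordinates, also deposited, are a score without unit. Per the methods and the submitters' processing notes, the authors aligned reads with Cell Ranger (versions 3.0.2 and 6.0.1 are listed), removed ambient RNA and doublets, filtered nuclei, merged libraries in Seurat (4.0.1 in the notes, another version in the methods), corrected for batch with Harmony and named clusters from marker genes. Ambient RNA, doublet and quality filters can remove types unequally, which could shift shares.

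Nuclei were counted per library and type with pandas 2.3.3 in Python 3.11.15, and shares were taken among all and among non-proximal nuclei (without PCT, PST and iPT). The main test was an exact two-sided permutation test over libraries of the difference in mean share, with Benjamini-Hochberg adjustment within each family (16 types, 13 types, 8 or 7 compartments, 12 ratios). A chi-square test over nuclei was not used, since nuclei of 1 library are not replicates. Ratios and centred log ratios had 0.5 nuclei added, and the latter were compared by their sum of squares between groups. The log2 odds were also fitted with limma 3.58.1 (R 4.3.3), with and without the name tag. Exact (Clopper-Pearson) 95% intervals and the limit for a count of 0 (3 nuclei) cover counting error only. Mixing used the 30 nearest neighbours (scikit-learn 1.9.0), up to 100 nuclei per library and libraries with at least 20. The permutation, limma and mixing steps were tested on simulated data. Alternatives were other weights, scales, denominators and numbers of neighbours, and subsets of libraries. The cell types, compartments and ratios were chosen with earlier results of these data known, and all 16 types are given. UMAP regions were chosen after seeing the map.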

Additional observations from a re-analysis of the deposited data

Results flagged for a closer look

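In 82 groups of 5 libraries (each type, denominator and ratio), 6 had a library far from the other 4. Chance flags about 1 in 20 groups, or 4.1 here, and no explanation was tested. The DOCA library RK2.2.New was far above the others in MyoFib, with 1.86% of all nuclei against 0.161 to 0.506%, and 3.78% of non-proximal nuclei against 0.412 to 1.12%. This library may be the week-3 DOCA sample. The control library RK10.3.Old was far below the others in endothelial cells, with 7.49% of all nuclei against 11.2 to 12.7%, and in fibroblasts, with 1.54% of non-proximal nuclei against 6.58 to 8.32%. Its log2 ratio of stromal to endothelial nuclei was −2.83 against −1.57 to −1.29. The control library RK12.3 had a log2 ratio of DCT to PC of −2.06 against −0.44 to 0.05.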

How the results depend on the processing

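No paired analysis was possible because library names carry no replicate number of a sample. Without each library in turn, the number of types passing the exact permutation test was 0 to 5 among all nuclei and 0 to 4 among non-proximal nuclei, the number of compartments 0 to 2 on each scale, of ratios 0 to 2 (DCT/PC and PST/PCT, without RK12.2.Old.MO) and of types in mixing 0 to 5. Nonzero numbers of types, compartments and mixing came without RK2.2.New, which may be the week-3 sample. With limma 3 types passed among all nuclei and 4 among non-proximal nuclei, with or without the name tag, and without each library in turn 2 to 5 and 3 to 5. Without RK12.2 Mono and Podo were gained among all nuclei, and without RK2.2.New Mono and iPT. The whole composition kept an exact permutation p between 0.0079 and 0.0317, except on shares of 16 types (23.2% of the sum of squares, exact permutation p = 0.111). Among all nuclei Prolif_Tubule, Lymphocyte, Mac, Mono, iPT, LOH, DCT, Endo, PST and Podo kept their direction in all alternatives run. Among non-proximal nuclei the same types without iPT and PST did so, and IC_A as well. Keeping the direction was therefore not particular to the types that passed a test. Without the small libraries RK12.2 and RK7.1, an alternative chosen after seeing the data, limma lost Mac among all nuclei.

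Directions turned as follows, none of a type that passed a test, and the cause was not tested. PCT, with a difference of 4.62 points, and PC, with −1.14, were the largest that turned among all nuclei. Pooled over nuclei, the DOCA minus control difference was 0.138 points for Fibroblast, 0.00459 for PC and −1.09 for PCT, and among non-proximal nuclei 0.351 for Fibroblast and 0.211 for PC, with 0.0482 for the log2 ratio PC/IC. By medians it was −0.0297 for MyoFib, and among non-proximal nuclei −0.215 for IC_B and 0.0658 for PC. On log2 shares it was −0.0386 for IC_B, −0.0103 for MyoFib and 0.0370 for non-proximal Fibroblast. With limma, with or without the name tag, it was −0.0381 for IC_B, −0.00788 for MyoFib and 0.0301 for non-proximal Fibroblast. Without the MO libraries non-proximal Fibroblast was 0.189, and with RK12.2 and RK12.2.Old.MO summed 0.0374. In untagged libraries MyoFib was −0.192, and −0.216 non-proximal. In tagged libraries Fibroblast was 0.293, IC_A 0.104, IC_B −0.159, PC 1.62 and PCT −5.79, and non-proximal Fibroblast 0.183, IC_B −0.691 and PC 1.83. Without RK12.2 and RK7.1, MyoFib/Fibroblast was −0.0083. Without each library in turn, ranges were −1.62 to 0.0708 for non-proximal Fibroblast, −0.265 to 0.307 for IC_B, −0.263 to 0.946 for non-proximal IC_B, −0.136 to 0.290 for MyoFib, −0.195 to 0.646 for non-proximal MyoFib, and on the log2 scale −0.38 to 0.39 for MyoFib/Fibroblast, −0.61 to 0.0361 for Podo/Endo and −0.30 to 0.0335 for PC/IC.

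With 1238 and 1774 nuclei in the smallest libraries, rare types there rest on few nuclei. In subsets of 3 against 3 and 2 against 2 libraries the smallest p allowed was 0.100 and 0.333, so only directions can be read.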
